A study of Mus musculus with 16 samples.

Results

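The ephrin, Eph, semaphorin, plexin and neuropilin genes are the ligands and receptors of the classical contact and guidance systems. Members were all genes on the array whose symbol is that of an ephrin (Efna, Efnb), an Eph receptor (Epha, Ephb), a semaphorin of classes 3 to 7, a plexin or a neuropilin, which gave 53 of 34836 gene names. They comprised 5 ephrin-A and 3 ephrin-B ligands, 9 EphA and 5 EphB receptors, 7 class 3 semaphorins, 13 semaphorins of classes 4 to 7, 2 neuropilins and 9 plexins. The study profiled satellite cell-derived myoblasts of male C57Bl/6J mice aged 11 to 13 weeks, either plated as dispersed cells on gelatin or grown on the explanted myofibers on which they reside, and asked how the transcriptome moves between 48 and 72 hr after isolation with and without that niche. RNA of 4 replicates of each culture at each time was hybridised to one-color Agilent arrays, 16 arrays in all. No genetic change or agent is named for any group, and both cultures used the same medium. A dispersed replicate came from 1 mouse and a myofiber-associated replicate from 2 mice. Myofiber-associated myoblasts were stripped from the fibers with trypsin and the fibers discarded, and 1 of the 4 replicates at 48 hr pooled 2 such preparations. The labels do not say which, and 1 carries a double number, 10+11.

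Ephrins are membrane-bound ligands, GPI-anchored in the A class and transmembrane in the B class, and bind Eph receptor tyrosine kinases on neighboring cells. Both partners signal, so the pair mediates repulsion, adhesion and sorting at cell contacts. Semaphorins signal through plexins. Most secreted class 3 semaphorins also need a neuropilin as the binding subunit, whereas classes 4 to 7 are membrane-anchored and bind plexins directly. Plexins act through small GTPases and collapse the actin cytoskeleton. In muscle these families are known for guiding motor axons and myoblasts, and semaphorin 3A is secreted by satellite cells after injury. In vessels, ephrin-B2 with EphB4 and semaphorin 3E with plexin-D1 are classical pairs of endothelial patterning.

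Promoters are shown for the class 3 semaphorins and the Eph receptor with the largest changes shared by the cultures: Sema3a, Sema3e and Epha1, which rose between 48 and 72 hr in both, and Sema3g, which fell in both. Each line gives the 250 bases before the transcription start from RefSeq (GRCm38.p6), 5′ to 3′ on the strand of the gene, with every match to CANNTG in capitals. CANNTG is the E-box, the motif of basic helix-loop-helix factors such as the MyoD family, and reads the same on both strands. It includes CAGCTG. The windows are chr5:13396534-13396783 (+) for Sema3a, chr5:14025026-14025275 (+) for Sema3e, chr6:42373269-42373518 (-) for Epha1 and chr14:31217623-31217872 (+) for Sema3g.
Sema3a: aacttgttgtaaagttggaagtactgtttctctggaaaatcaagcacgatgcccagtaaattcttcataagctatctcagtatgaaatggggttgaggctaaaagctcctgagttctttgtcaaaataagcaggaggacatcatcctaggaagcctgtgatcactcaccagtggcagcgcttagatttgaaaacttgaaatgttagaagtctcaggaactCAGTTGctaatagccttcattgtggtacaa
Sema3e: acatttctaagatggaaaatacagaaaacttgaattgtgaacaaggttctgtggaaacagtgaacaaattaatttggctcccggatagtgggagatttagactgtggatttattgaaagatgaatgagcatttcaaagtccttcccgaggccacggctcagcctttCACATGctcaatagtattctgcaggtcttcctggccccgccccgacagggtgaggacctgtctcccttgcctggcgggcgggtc
Epha1: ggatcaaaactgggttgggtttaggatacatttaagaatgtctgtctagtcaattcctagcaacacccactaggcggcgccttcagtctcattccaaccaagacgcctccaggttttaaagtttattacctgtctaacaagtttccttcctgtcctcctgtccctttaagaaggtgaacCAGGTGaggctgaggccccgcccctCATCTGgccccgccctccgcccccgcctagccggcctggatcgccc
Sema3g: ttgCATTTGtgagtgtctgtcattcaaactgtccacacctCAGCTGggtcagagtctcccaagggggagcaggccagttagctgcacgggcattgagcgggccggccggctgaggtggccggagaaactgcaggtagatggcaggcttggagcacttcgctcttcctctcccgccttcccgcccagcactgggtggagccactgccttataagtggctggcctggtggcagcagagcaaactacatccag

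The Sema3a window held 1 match (CAGTTG) 30 bases before the start and the Sema3e window 1 match (CACATG) 84 bases before it. The Epha1 window held 2 matches, CAGGTG and CATCTG, at 71 and 46 bases. The Sema3g window also held 2, of which the one 210 bases before the start was CAGCTG. Of the 47 members with a promoter in the table, 22 held CANNTG (46.8%) and 7 held CAGCTG (14.9%), against 66.2% and 13.0% of all 32851 windows of this length. A match to CANNTG was common over all windows and less so among the members, and every window shown held one. Of the other members that rose in both cultures, Ephb6 and Plxnc1 had 1 match each, and Efna4 and Plxna3 had none. Sema3f and Plxna4, which also fell in both, had no promoter in the table.

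Between 55.2% and 64.3% of gene spots were well above background on each array, and 46 of the 53 members were so on all 16. Values below are log2 of the normalized signal. A gene was tested if its median was at least 5, which left 48 members of 20317 genes. Epha6, Epha8 and Sema3d were well above background on no array, Epha3 on 4 and Sema4g on 6, and these 5 members were not tested. Replicates varied less in dispersed myoblasts, where the median SD of a tested member was 0.14 at 48 hr and 0.13 at 72 hr, than in myofiber-associated ones, where it was 0.27 and 0.32. The 8 arrays of a culture shared a slide and a scan, which therefore cannot be told apart from the culture. Within a slide, columns 1 and 2 held 72-hr samples and columns 3 and 4 held 48-hr samples. Time therefore cannot be told apart from slide column, and a block for slide row does not separate them. Markers of other cells differed between the cultures, and some lists also moved with time. The mean log2 signal of 21 endothelial genes such as Pecam1 and Cdh5 was 11.9 to 12.3 on the dispersed arrays at 48 hr and 10.4 to 10.9 at 72 hr, against 8.88 to 10.0 and 6.78 to 7.95 on the myofiber-associated arrays. In each group, no more than 1 of the 22 listed genes was without an array above background. Schwann, leukocyte and fibroblast or pericyte lists were also higher on the dispersed arrays at 48 hr, at 9.83 to 10.1, 9.68 to 9.91 and 11.9 to 12.4 against 8.16 to 8.75, 8.41 to 8.77 and 10.9 to 11.5. Adult fiber genes ran the other way, at 13.8 to 14.8 and 12.1 to 13.5 on the myofiber-associated arrays and 9.32 to 10.2 and 8.88 to 9.11 on the dispersed ones at 48 and 72 hr. The myoblast list lay at 11.3 to 11.6 and 11.7 to 12.1 on the dispersed and at 12.4 to 12.8 and 13.0 to 13.2 on the myofiber-associated arrays at these times. Gene by gene at 48 hr, 4 of its 14 genes passed as higher in myofiber-associated myoblasts and 5 as lower, with a median log2 difference of -0.35 and a range from -0.86 to 8.92 (Myf6). In such bulk RNA, fewer cells of a type and less RNA per cell cannot be told apart, and the part of these markers in the results below was not tested.

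Epha1, Sema3e and Sema3a were the members that rose most between 48 and 72 hr in each culture, and Sema3g and Sema3f were among those that fell most. In dispersed myoblasts 23 of the 48 tested members changed between 48 and 72 hr (limma, Benjamini-Hochberg adjusted p below 0.01), against 13.7% of all genes tested. Of these 10 rose and 13 fell, where 7.38% of all genes rose and 6.32% fell. In myofiber-associated myoblasts 14 members changed, against 5.48% of all genes, and 10 of them rose and 4 fell (background 3.74% and 1.74%). In all, 11 members changed in both cultures, against 2.77% of all genes. Of these, 7 rose in both (Epha1, Sema3e, Sema3a, Plxnc1, Plxna3, Efna4 and Ephb6), 3 fell in both (Sema3g, Sema3f and Plxna4) and Sema6b moved in opposite directions, where 2.72% of all genes passed in both with the same direction. The median change over the 48 members was -0.01 in dispersed and 0.29 in myofiber-associated myoblasts on the log2 scale, against 0.02 and 0.06 over all genes. A single fit of all 16 arrays, which shares 1 spread between the cultures, gave 10 and 26 calls in place of 23 and 14. No filter on low signal gave 14 and 7, and the slide row as a block gave 8 in myofiber-associated myoblasts. Calls over all genes moved too, from 2784 and 1113 to 999 and 5780 with the single fit. Without the filter 2052 and 468 genes passed, and with the row as a block 571 did in myofiber-associated myoblasts. Leaving out 1 array gave 14 to 19 calls in dispersed and 5 to 16 in myofiber-associated myoblasts. Over all genes these runs gave 1657 to 2480 and 246 to 2005 calls. The dispersed count was 14 or 15 without 48-hr replicate 4 or 72-hr replicate 5, 6 or 7, and the myofiber-associated count was 5 to 8 without 48-hr replicate 7, 8 or 9 or 72-hr replicate 1 or 3. Of 43 single calls (23 and 14 changes and 6 interactions), 12 held in every alternative and in every run that left an array out: Efna1, Efna4, Sema3e, Sema3f, Sema3g and Plxna4 in dispersed myoblasts, Efna4, Epha1, Sema3a, Sema3e and Plxna4 in myofiber-associated myoblasts, and the interaction of Sema6b.

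**Figure D1:**
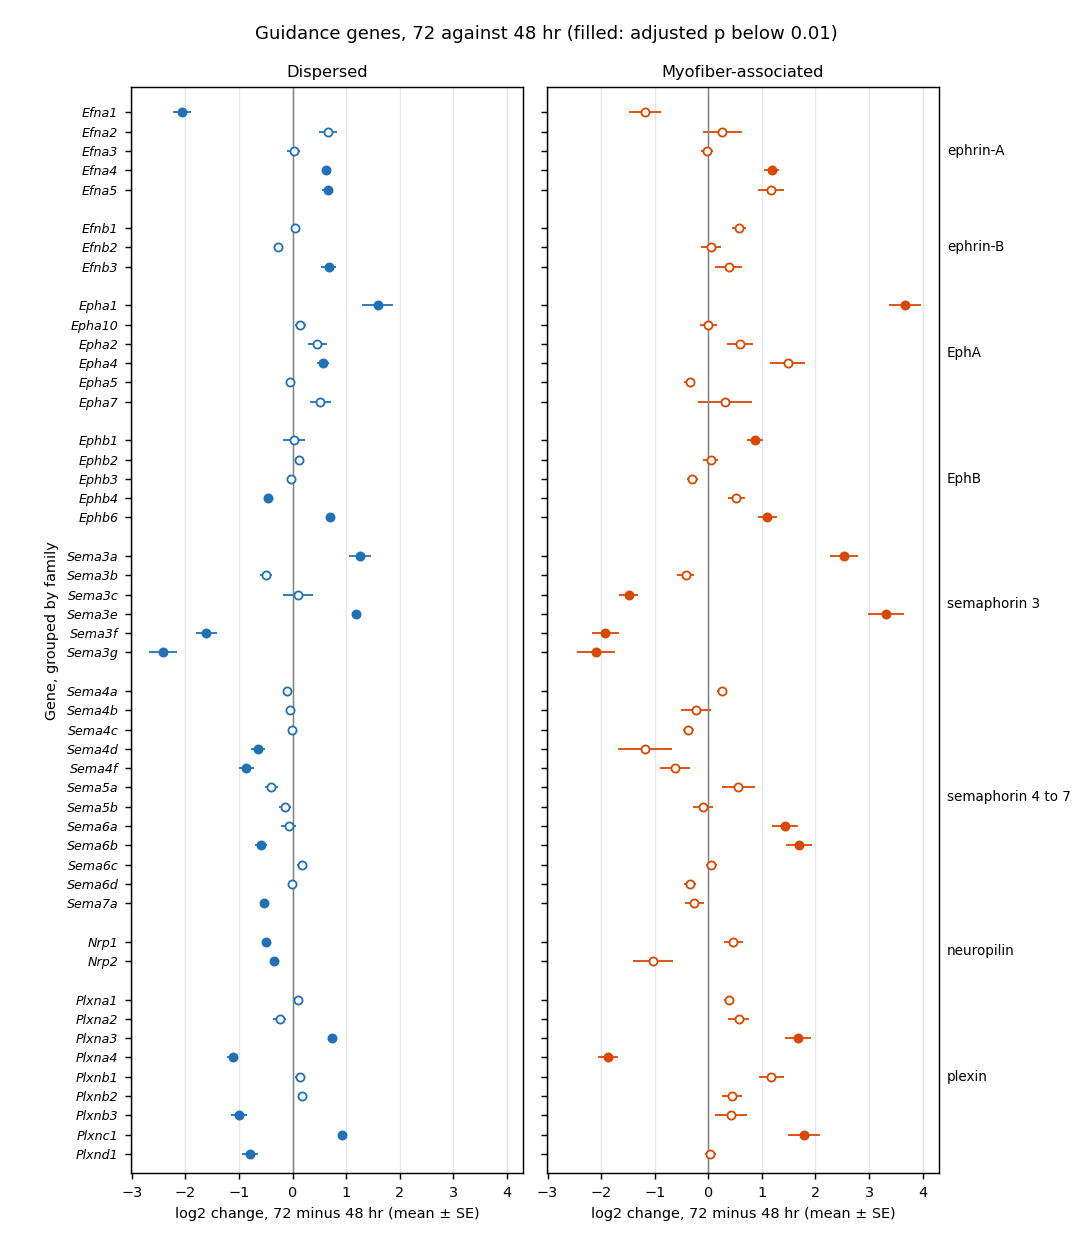
Log2 change from 48 to 72 hr (x axis, mean ± SE) of the 48 tested guidance genes in dispersed (left, blue) and myofiber-associated (right, orange) myoblasts, 4 arrays per time, grouped by family. Filled points passed an adjusted p of 0.01; Epha1 (3.67) and Sema3e (3.31) rose most in myofiber-associated myoblasts and Sema3g (-2.42) fell most in dispersed ones.

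Among the ephrin-A ligands, Efna1 fell and Efna4 rose. Efna1, a ligand of EphA2 that endothelial cells express, was at 11.88, 12.13, 12.16 and 12.67 on the dispersed arrays at 48 hr and at 9.97, 10.06, 10.28 and 10.30 at 72 hr. It fell by 2.06 ± 0.16 (SE) on the log2 scale, 4.17-fold (adjusted p = 0.000128), a fall exceeded among the members by that of Sema3g alone. In the myofiber-associated culture it was at 10.68, 10.91, 11.20 and 11.23 at 48 hr and at 9.25, 9.29, 10.35 and 10.42 at 72 hr. The times did not overlap there either, but the change of -1.18 ± 0.30 had an adjusted p of 0.0295. The endothelial list was lower at 72 hr in both cultures too: 20 of its 21 tested genes fell in dispersed and 14 in myofiber-associated myoblasts, with median changes of -1.45 and -2.35. Median changes of the Schwann, leukocyte and fibroblast or pericyte lists were also negative. They were -0.88, -0.78 and -0.30 in dispersed and -0.31, -1.22 and -0.94 in myofiber-associated myoblasts. Efna4 rose in both cultures, from 8.49, 8.49, 8.53 and 8.74 to 9.12, 9.13, 9.23 and 9.28 in dispersed myoblasts (0.63 ± 0.07, adjusted p = 0.000568) and from 7.65, 7.65, 7.86 and 7.94 to 8.68, 8.93, 9.0 and 9.22 in myofiber-associated ones (1.18 ± 0.13, adjusted p = 0.00174). No array at 72 hr was as low as any at 48 hr. Efna5 rose by 0.65 ± 0.10 in dispersed myoblasts (adjusted p = 0.00218), and its change in myofiber-associated ones was 1.17 ± 0.24 (adjusted p = 0.0153). Efna2 and Efna3 passed in neither.

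The ephrin-B ligands moved less. Efnb1 lay between 12.87 and 12.99 on all 8 dispersed arrays, with a change of 0.05 ± 0.04 (adjusted p = 0.352). In myofiber-associated myoblasts it was at 12.31, 12.32, 12.35 and 12.80 at 48 hr and at 12.98, 13.01, 13.01 and 13.07 at 72 hr, a change of 0.57 ± 0.12 with an adjusted p of 0.0175. Efnb2, the arterial ligand of EphB4, had changes of -0.26 ± 0.07 in dispersed (adjusted p = 0.0303) and 0.05 ± 0.19 in myofiber-associated myoblasts (adjusted p = 0.872). Efnb3 rose in dispersed myoblasts by 0.67 ± 0.14 (adjusted p = 0.00911), near the threshold: it passed in 1 of the 8 runs that left an array out, with an adjusted p up to 0.0279 without 72-hr replicate 6.

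Of the EphA receptors, Epha1 rose most. On the dispersed arrays it was at 6.86, 7.43, 7.43 and 7.95 at 48 hr and at 8.53, 8.61, 9.43 and 9.44 at 72 hr. On the myofiber-associated arrays it was at 5.68, 5.69, 5.79 and 6.41 at 48 hr and at 8.97, 9.13, 10.03 and 10.13 at 72 hr. Every 72-hr array was above every 48-hr array of its culture. The rise was 1.59 ± 0.29 (3.0-fold, adjusted p = 0.00587) in dispersed and 3.67 ± 0.30 (12.8-fold, adjusted p = 0.000745) in myofiber-associated myoblasts. The latter was the largest change of any member and held without each array. The former passed in 2 of the 8 runs that left an array out (adjusted p up to 0.0179, without 72-hr replicate 5).

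Epha4, the receptor that binds ephrins of both classes, was well above background on all 8 dispersed arrays, at 6.09 to 6.63 at 48 hr and 6.91 to 7.09 at 72 hr, and rose by 0.57 ± 0.11 (adjusted p = 0.00808), a call that passed in 2 of 8 runs without 1 array (highest adjusted p 0.0258, without 72-hr replicate 7). In the other culture it was not well above background on any array at 48 hr and was so on all 4 at 72 hr. The measured rise there was 2.79-fold (adjusted p = 0.0182, short of the threshold). Its size is uncertain, because the 48-hr signal was not well above background. Epha2, the main receptor of ephrin-A1, had changes of 0.46 ± 0.18 (adjusted p = 0.0974) and 0.59 ± 0.24 (adjusted p = 0.0999). Epha5, Epha7 and Epha10 passed in neither culture. For Epha5 the values rest on 1 probe near 14, while its other 2 probes lay between 2.43 and 4.29 in the group means, so the level of this gene is uncertain.

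Among EphB receptors, Ephb6, which has no active kinase, rose in both cultures: the dispersed rise was 0.71 ± 0.07 (adjusted p = 0.000371) and the myofiber-associated rise 1.1 ± 0.17 (adjusted p = 0.00589). Its values went from between 9.45 and 9.56 to between 10.07 and 10.39 and from between 9.01 and 9.24 to between 9.91 and 10.62. A second Ephb6 probe changed by 0.10 and 0.82, respectively, and with the mean of all probes the dispersed change was 0.40 with an adjusted p of 0.0656. The myofiber-associated call passed in 3 of 8 runs without 1 array (adjusted p up to 0.0231, without 48-hr replicate 7). It passed in 7 of 9 other alternatives. Ephb1 rose in myofiber-associated myoblasts by 0.87 ± 0.15 (adjusted p = 0.0072) and had a change of 0.03 ± 0.20 in dispersed ones (adjusted p = 0.94). The former passed in 2 of 8 runs without 1 array (adjusted p up to 0.0275, without 48-hr replicate 7). Ephb4 fell in dispersed myoblasts by 0.47 ± 0.07 (adjusted p = 0.00224) and is described with the differences between the cultures. Ephb2 and Ephb3 passed in neither.

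The class 3 semaphorins held the widest spread of any family, with members that rose and members that fell in both cultures. Sema3a, a repellent that signals through neuropilin-1 and A-type plexins, was at 7.81, 7.89, 8.28 and 8.58 on the dispersed arrays at 48 hr and at 9.07, 9.26, 9.55 and 9.73 at 72 hr. On the myofiber-associated arrays it went from 6.72, 6.76, 6.93 and 7.76 to 9.30, 9.31, 9.72 and 9.96. The groups did not overlap in either culture. The rise was 1.26 ± 0.20 (2.40-fold, adjusted p = 0.00337) and 2.53 ± 0.26 (5.79-fold, adjusted p = 0.00124), and a second Sema3a probe changed by 1.05 and 2.30. The dispersed call was lost without 72-hr replicate 6 (adjusted p = 0.0122) and in 2 of the other 7 such runs.

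Sema3e, which binds plexin-D1 without a neuropilin, was at 6.65, 6.72, 6.76 and 6.86 at 48 hr and at 7.77, 7.89, 7.99 and 8.10 at 72 hr in dispersed myoblasts. In myofiber-associated myoblasts it went from 4.87, 4.96, 5.26 and 5.93 to 7.93, 8.32, 8.67 and 9.36. It rose by 1.19 ± 0.08 (2.28-fold, adjusted p = 6.41e-05) and by 3.31 ± 0.34 (9.95-fold, adjusted p = 0.00124), the second largest rise among the members in the latter culture.

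Sema3g and Sema3f, ligands of neuropilin-2, fell in both cultures. Sema3g, known from endothelial cells, was at 10.90, 11.41, 11.48 and 12.03 at 48 hr and at 8.50, 9.05, 9.27 and 9.31 at 72 hr in dispersed myoblasts, and at 7.87, 8.95, 9.20 and 9.31 and then 6.26, 6.57, 6.73 and 7.39 in myofiber-associated ones. The changes were -2.42 ± 0.26 (5.36-fold, adjusted p = 0.000463) and -2.10 ± 0.35 (4.27-fold, adjusted p = 0.00707), and its second probe changed by -1.64 and -0.98. The myofiber-associated call passed in 3 of 8 runs that left an array out (adjusted p up to 0.0272, without 72-hr replicate 1). Sema3f was at 11.72, 11.99, 12.16 and 12.43 and then 10.04, 10.48, 10.49 and 10.85 in dispersed myoblasts, and at 9.50, 9.85, 9.90 and 10.55 and then 7.70, 7.76, 8.33 and 8.33 in myofiber-associated ones. Its changes were -1.61 ± 0.20 (3.05-fold, adjusted p = 0.000885) and -1.92 ± 0.25 (3.78-fold, adjusted p = 0.00283). The latter passed in 5 of 8 runs without 1 array (adjusted p up to 0.0118, without 72-hr replicate 1). Both genes stepped down from dispersed to myofiber-associated cultures and from 48 to 72 hr. The mean levels of the endothelial, leukocyte and fibroblast or pericyte lists did so too, and the part of any of them was not tested.

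Sema3c, a ligand of both neuropilins, fell in myofiber-associated myoblasts, from 10.84, 11.12, 11.26 and 11.54 to 9.33, 9.74, 9.82 and 9.93 (-1.48 ± 0.18, 2.80-fold, adjusted p = 0.00234), and its second probe changed by -1.63. Without 48-hr replicate 7 the adjusted p was 0.0104. On the dispersed arrays the times overlapped, at 11.07 to 11.98 and 11.12 to 12.18, with a change of 0.11 ± 0.28 (adjusted p = 0.82). The difference between these changes was 1.59 ± 0.35 with an adjusted p of 0.0118, just outside the threshold. Sema3b passed in neither culture, with changes of -0.49 ± 0.11 (adjusted p = 0.0128) and -0.42 ± 0.16.

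**Figure D2:**
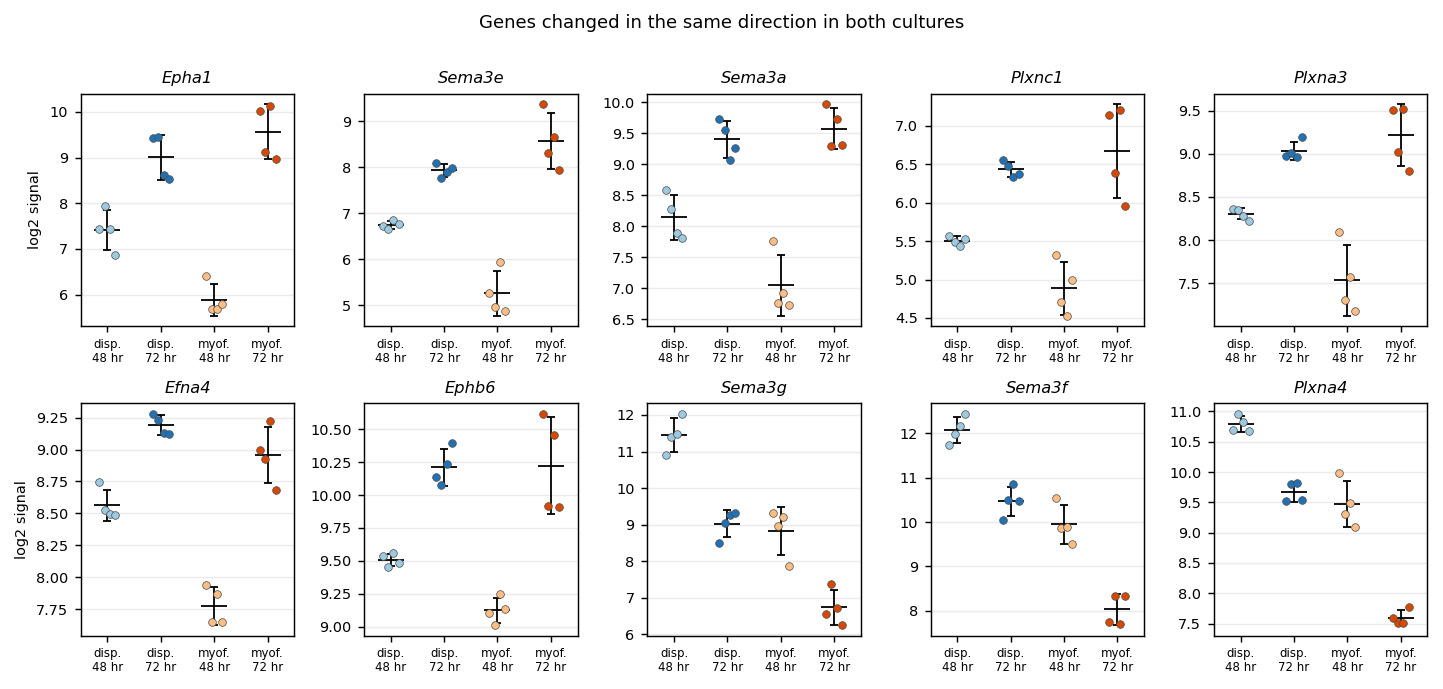
Log2 signal of the 10 guidance genes that changed in the same direction in both cultures, in dispersed (disp.) and myofiber-associated (myof.) myoblasts at 48 and 72 hr; each point is 1 array, and the bar and whiskers are the mean ± SD of 4 arrays. The 7 genes that rose lie below the dispersed arrays at 48 hr on the myofiber-associated ones and overlap them at 72 hr, while Sema3g, Sema3f and Plxna4 start and end lower there.

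Of the 12 tested semaphorins of classes 4 to 7, 4 fell and none rose in dispersed myoblasts, and 2 rose and none fell in myofiber-associated ones. Over all genes 6.32% fell and 7.38% rose in the former and 3.74% rose and 1.74% fell in the latter. Sema7a, a GPI-anchored ligand of plexin-C1 and integrins, fell in dispersed myoblasts from 15.27, 15.29, 15.34 and 15.45 to 14.71, 14.81, 14.83 and 14.88 (-0.53 ± 0.06, adjusted p = 0.000434). Values in the myofiber-associated culture overlapped, at 14.11 to 14.32 and 13.51 to 14.30 (-0.26 ± 0.17, adjusted p = 0.288). Sema4d, the ligand of plexin-B1, fell in dispersed myoblasts by 0.64 ± 0.13 (adjusted p = 0.00914), a call that passed in 1 of 8 runs without 1 array (adjusted p up to 0.0277, without 72-hr replicate 6). It varied widely on the myofiber-associated arrays, from 9.09 to 10.77 at 48 hr and 7.89 to 9.86 at 72 hr. Sema4f fell by 0.86 ± 0.14 in dispersed myoblasts (adjusted p = 0.00376). It lay so near the floor of the test that it was not tested in any run that left out a dispersed array. Sema4c, a plexin-B2 ligand known from myoblasts, was at 15.87 to 15.94 and 15.78 to 16.05 in dispersed myoblasts (-0.01 ± 0.06, adjusted p = 0.901). On the myofiber-associated arrays it went from 16.42, 16.56, 16.58 and 16.64 to 16.01, 16.07, 16.25 and 16.41 (-0.37 ± 0.11, adjusted p = 0.0468). The class 6 genes Sema6a and Sema6b rose in myofiber-associated myoblasts and are described with the differences between the cultures.

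The neuropilins, the binding subunits for class 3 semaphorins and co-receptors for VEGF, both fell in dispersed myoblasts. Nrp1 fell by 0.49 ± 0.07 (adjusted p = 0.00203). Nrp2 was at 14.06, 14.20, 14.24 and 14.34 at 48 hr and 13.81, 13.82, 13.89 and 13.95 at 72 hr, a fall of 0.34 ± 0.07 (adjusted p = 0.00769) that passed in 1 of 8 runs without 1 array (adjusted p up to 0.0244, without 72-hr replicate 5) and in 3 of 9 other alternatives, with an adjusted p of 0.538 in a single fit of all 16 arrays. In myofiber-associated myoblasts Nrp2 was at 13.10, 13.11, 13.31 and 14.68 at 48 hr, the last being replicate 10+11, and at 12.19, 12.37, 12.40 and 13.10 at 72 hr. That change of -1.03 ± 0.37 had an adjusted p of 0.0732.

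Among the 9 plexins, Plxna3 and Plxnc1 rose and Plxna4 fell in both cultures. Plxna3, a receptor for Sema3a and Sema3f complexes, went from 8.22, 8.28, 8.35 and 8.36 to 8.96, 8.98, 9.01 and 9.19 in dispersed myoblasts (0.73 ± 0.06, adjusted p = 0.000167) and from 7.17, 7.30, 7.57 and 8.09 to 8.80, 9.02, 9.51 and 9.52 in myofiber-associated ones (1.68 ± 0.24, 3.21-fold, adjusted p = 0.0042). Plxnc1, the receptor of Sema7a, rose by 0.93 ± 0.06 (adjusted p = 5.48e-05) and 1.78 ± 0.30 (adjusted p = 0.00756). In dispersed myoblasts it rose over the interval in which its ligand fell. In the myofiber-associated culture Plxna3 and Plxnc1 each passed in 2 of 8 runs without 1 array (adjusted p up to 0.0173 and 0.028, both without 48-hr replicate 7). Plxna4, a receptor of Sema3a and Sema6 ligands, fell from 10.68, 10.70, 10.83 and 10.96 to 9.52, 9.54, 9.81 and 9.82 (-1.12 ± 0.10, adjusted p = 0.000175) and from 9.09, 9.31, 9.49 and 9.98 to 7.51, 7.51, 7.60 and 7.77 (-1.87 ± 0.18, 3.65-fold, adjusted p = 0.0011). No values of the times overlapped.

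Plxnd1, the Sema3e receptor of vessels, fell in dispersed myoblasts by 0.79 ± 0.14 (adjusted p = 0.00543), from 14.27, 14.56, 14.59 and 14.81 to 13.47, 13.77, 13.78 and 14.04, and its second probe changed by -0.82. Its ligand Sema3e rose over the same interval. The call passed in 2 of 8 runs without 1 array (adjusted p up to 0.0181, without 48-hr replicate 2). Plxnd1 on the myofiber-associated arrays was at 13.84 to 14.24 and 13.93 to 14.10 (0.03 ± 0.11, adjusted p = 0.822). Plxnb3, a Sema5a receptor, fell in dispersed myoblasts by 1.0 ± 0.15 (adjusted p = 0.00226). Plxna1 and Plxnb2, the receptors of Sema6d and Sema4c, lay within narrow ranges in dispersed myoblasts, with changes of 0.10 ± 0.05 (adjusted p = 0.167) and 0.18 ± 0.06 (adjusted p = 0.0495), and did not pass in myofiber-associated ones (0.39 ± 0.09, adjusted p = 0.0209, and 0.44 ± 0.18, adjusted p = 0.106).

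The change between 48 and 72 hr differed between the cultures for 6 members, Sema6b, Sema3e, Epha1, Sema6a, Ephb4 and Nrp1, against 3.45% of all genes. The interaction is the dispersed change minus the myofiber-associated change, which is the log2 of the ratio of the fold changes in the study's terms. All 6 lay below 0, that is, higher at 72 hr relative to 48 hr in the myofiber-associated than in the dispersed culture, where 2.36% of all genes passed below and 1.09% above. Over the 48 members the median was -0.30, against -0.07 over all genes. The count was 1 to 12 without 1 array: at most 3 without dispersed 48-hr replicate 2, 3 or 4, dispersed 72-hr replicate 5, 6 or 7, or myofiber-associated 48-hr replicate 7 or 9 or 72-hr replicate 1, and 11 or 12 without myofiber-associated 72-hr replicate 4 or 48-hr replicate 10+11. Over all genes these runs gave 292 to 2358 calls, in place of 701.

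Sema6b, a transmembrane ligand of plexin-A4, had the largest interaction and was the member that passed in opposite directions. It went from 8.76, 8.89, 8.96 and 9.20 to 8.14, 8.37, 8.46 and 8.52 in dispersed myoblasts (-0.58 ± 0.11, adjusted p = 0.00739) and from 6.83, 6.87, 7.22 and 7.75 to 8.54, 8.58, 9.03 and 9.27 in myofiber-associated ones (1.69 ± 0.24, 3.22-fold, adjusted p = 0.00436). The groups did not overlap in either culture, and the interaction was -2.27 ± 0.28 (adjusted p = 0.000615), which held without each array. When single arrays were left out, its separate changes held in 2 and 3 of 8 runs, and the adjusted p reached 0.0233 (dispersed 48-hr replicate 2 left out) and 0.0171 (myofiber-associated 48-hr replicate 7 left out). Sema6a, its relative, was at 8.95 to 9.36 and 8.71 to 9.32 on the dispersed arrays (-0.07 ± 0.14, adjusted p = 0.745). In myofiber-associated myoblasts it rose from 7.57, 7.73, 7.81 and 8.25 to 8.75, 9.11, 9.43 and 9.79 (1.43 ± 0.24, 2.70-fold, adjusted p = 0.00677). This rise of Sema6a passed in 2 of 8 runs without 1 array (adjusted p up to 0.0256, without myofiber-associated 48-hr replicate 7). It passed in 5 of 9 other alternatives. The Sema6a interaction was -1.50 ± 0.29 (adjusted p = 0.00597). It passed in 5 of 16 runs without 1 array, with an adjusted p up to 0.016 without dispersed 48-hr replicate 4. It passed in 6 of 8 processing alternatives, with an adjusted p of 0.048 for the mean of all probes.

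Sema3e and Epha1 rose in both cultures but more in the myofiber-associated one, with interactions of -2.12 ± 0.37 (4.36-fold, adjusted p = 0.00348) and -2.09 ± 0.44 (4.25-fold, adjusted p = 0.00985). The first passed in 15 of 16 runs without 1 array (0.0102 without dispersed 72-hr replicate 6) and the second in 3 of 16 (up to 0.0244 without myofiber-associated 72-hr replicate 1). Among 8 processing alternatives, the interaction of Sema3e passed in 7 and that of Epha1 in 3. Under normexp background correction their adjusted p was 0.0126 and 0.0258. Ephb4, the venous receptor of ephrin-B2, fell in dispersed myoblasts from 11.14, 11.18, 11.25 and 11.44 to 10.73, 10.76, 10.81 and 10.85. On the myofiber-associated arrays it was at 9.45, 9.59, 9.74 and 10.04 and then 9.94, 10.17, 10.32 and 10.48, a change of 0.53 ± 0.16 (adjusted p = 0.0492). The interaction was -0.99 ± 0.18 (adjusted p = 0.0044), with 9 of 16 runs past the threshold (adjusted p up to 0.0125, without dispersed 48-hr replicate 4). Nrp1 fell in dispersed myoblasts from 9.69, 9.74, 9.76 and 9.90 to 9.16, 9.21, 9.38 and 9.39 and was at 8.33, 8.43, 8.50 and 8.55 and then 8.55, 8.75, 8.93 and 9.42 on the myofiber-associated arrays (0.46 ± 0.18, adjusted p = 0.0894). Its interaction was -0.95 ± 0.20 (adjusted p = 0.00899), with 4 of 16 runs past the threshold (up to 0.0222, without dispersed 72-hr replicate 5), and it passed in 3 of 8 processing alternatives (up to 0.018, with no filter on low signal).

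**Figure D3:**
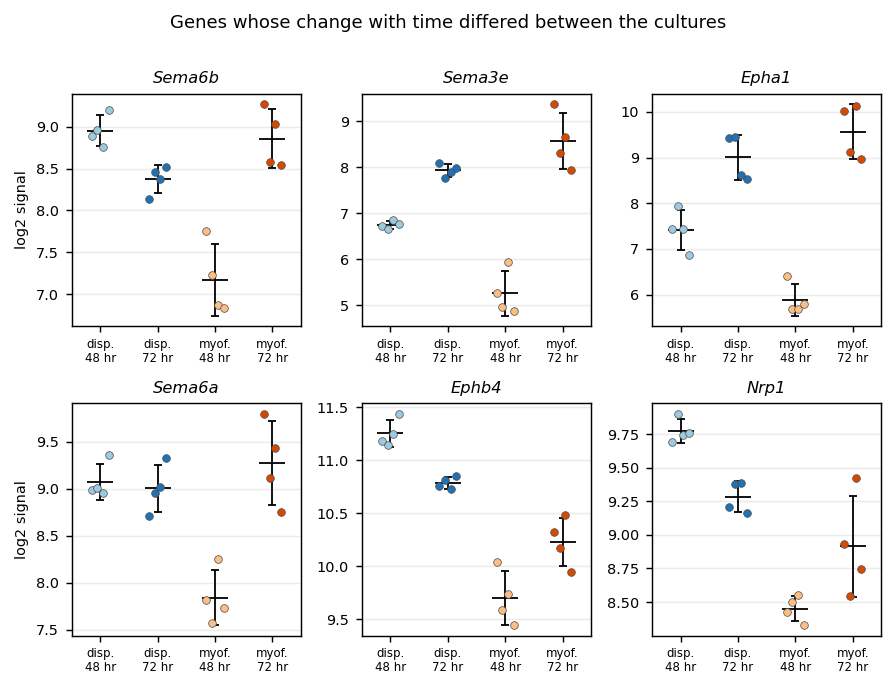
Log2 signal of the 6 guidance genes whose change from 48 to 72 hr differed between dispersed (disp.) and myofiber-associated (myof.) myoblasts; each point is 1 array, with the mean ± SD of 4 arrays. Each gene was lowest on the myofiber-associated arrays at 48 hr and higher there at 72 hr, while Sema6b, Ephb4 and Nrp1 were lower at 72 than at 48 hr in dispersed myoblasts.

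Compared directly, the cultures stood further apart at 48 than at 72 hr, with slide and culture inseparable in both comparisons. At 48 hr, 35 of 48 members differed, against 51.6% of all genes. On the myofiber-associated side 8 of these were higher and 27 lower (background 19.1% and 32.5%). At 72 hr, 15 differed, against 31.3% of all genes, which is a share like the background: 2 higher and 13 lower (background 12.9% and 18.4%). The median difference of the members, myofiber-associated minus dispersed, was -0.69 at 48 hr and -0.19 at 72 hr, against -0.12 and -0.02 over all genes. In all, 13 members differed at both times, 11 of them lower and 2 (Efna3 and Epha10) higher in myofiber-associated myoblasts, while 22 passed at 48 hr and not at 72 hr. The share of all genes passing at both times or at 48 hr alone was not counted. These overlaps therefore have no background beside them. Efna3 and Epha10 each rest on 1 of 2 probes, since the other probe was well above background on no array.

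All 9 plexins had negative differences at 48 hr, that is, lower levels in myofiber-associated myoblasts, and 7 passed. Of all 20317 genes tested, 11898 had negative differences at that time and 32.5% passed as lower. Of the 48 tested members, 37 had negative differences and 27 passed as lower. Plxnb3 was furthest apart, at 8.30, 8.46, 8.50 and 8.51 on the dispersed and 4.81, 5.04, 5.58 and 5.62 on the myofiber-associated arrays (-3.18 ± 0.25, 9.06-fold, adjusted p = 2.14e-07). At 72 hr the difference was -1.75 ± 0.25 (adjusted p = 7.49e-05). Epha4 measured 6.78-fold higher in dispersed myoblasts at 48 hr (adjusted p = 1.07e-06). No myofiber-associated array at that time was well above background, so the size of this fold is uncertain. The Epha4 difference at 72 hr was -1.85 ± 0.26 (adjusted p = 6.47e-05). Plxna4 was lower on the myofiber-associated arrays at both times (-1.32 ± 0.15 and -2.07 ± 0.15, adjusted p = 5.94e-06 and 1.53e-07), and Nrp2 at 72 hr (-1.35 ± 0.28, adjusted p = 0.00153).

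Among ligands, Sema3g (-2.62 ± 0.33, adjusted p = 1.29e-05), Sema3f (-2.12 ± 0.24, adjusted p = 4.6e-06) and Sema5a (-2.07 ± 0.25, adjusted p = 9.06e-06) were furthest below the dispersed level at 48 hr. Sema3g and Sema3f were also lower at 72 hr (-2.29 ± 0.33 and -2.43 ± 0.24), and Sema3c joined them (-2.05 ± 0.25, adjusted p = 1.78e-05). All 21 tested endothelial genes were lower in myofiber-associated cultures at both times, by a median of -2.79 and -3.47. The Schwann, leukocyte and fibroblast or pericyte lists also had negative medians, of -1.58, -1.77 and -0.65 at 48 hr. At 72 hr these were -0.76, -1.82 and -1.15. The largest difference the other way was Sema4d at 48 hr, at 9.09, 10.04, 10.52 and 10.77 on the myofiber-associated and 8.41, 8.68, 8.74 and 8.76 on the dispersed arrays (1.46 ± 0.40, adjusted p = 0.00506). Epha10 (0.70 ± 0.14), Sema4c (0.65 ± 0.09), Efna3 (0.54 ± 0.12) and Sema6c (0.44 ± 0.10) followed at 48 hr. Of these, Epha10 (0.55 ± 0.14, adjusted p = 0.00475) and Efna3 (0.48 ± 0.12, adjusted p = 0.00412) passed at 72 hr. The adult fiber list was higher on the myofiber-associated arrays by a median of 5.40 at 48 hr and 4.69 at 72 hr. Sema3a, Sema3e, Epha1, Sema6a and Sema6b, all lower in myofiber-associated myoblasts at 48 hr (-1.78 to -1.10), had differences of 0.17 to 0.63 at 72 hr, none of which passed.

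**Figure D4:**
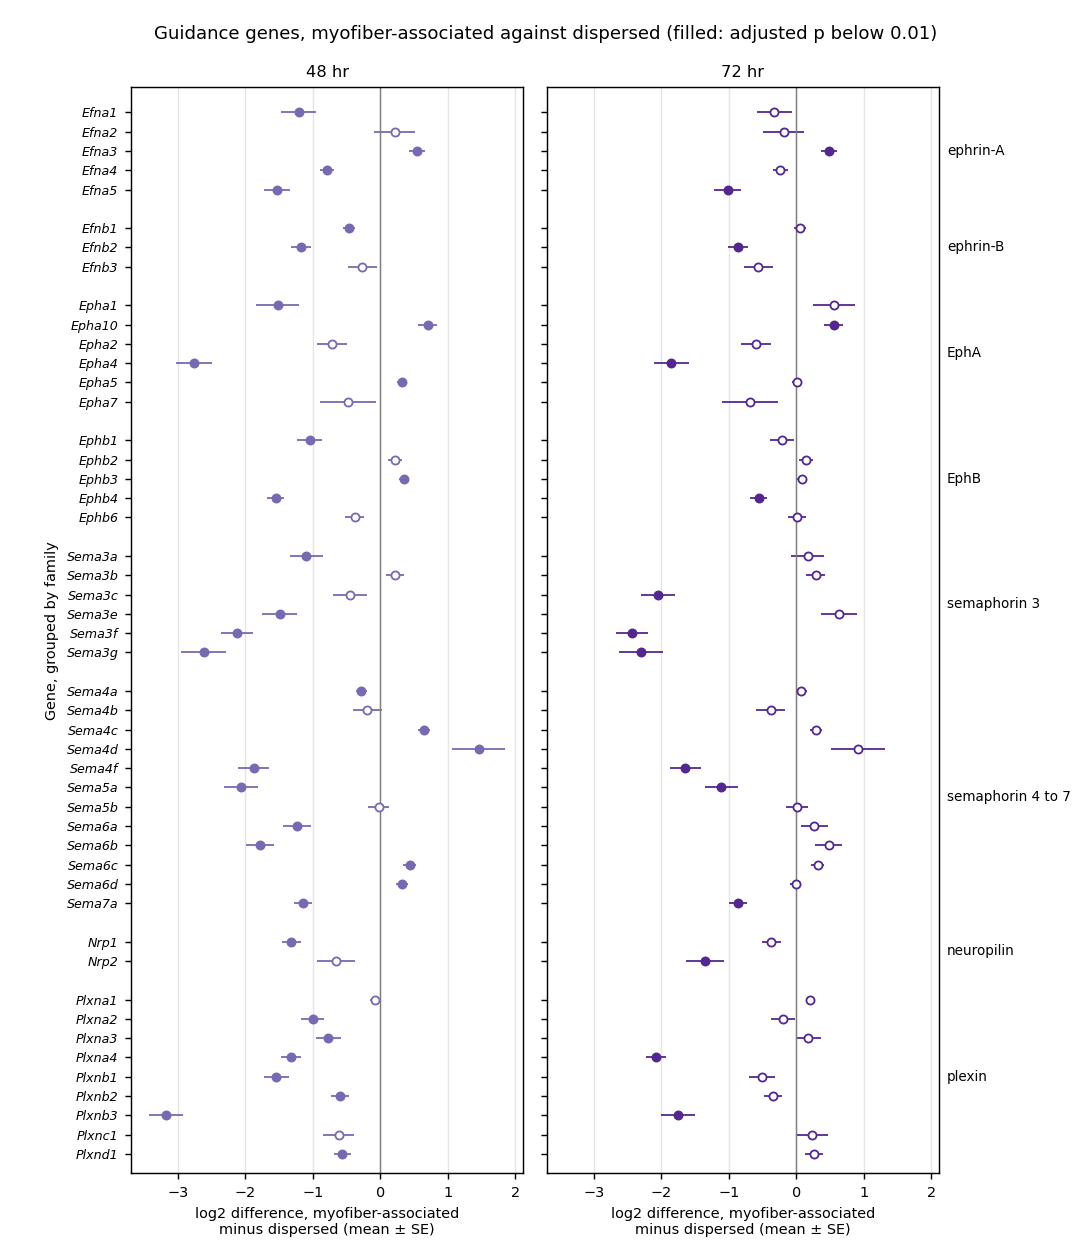
Log2 difference between myofiber-associated and dispersed myoblasts (x axis, mean ± SE) at 48 hr (left) and 72 hr (right) for the 48 tested guidance genes, 4 arrays per group; filled points passed an adjusted p of 0.01. Points lie mostly left of 0 at 48 hr (27 of 35 calls) and 15 are filled at 72 hr, where Sema3f, Sema3g, Plxna4, Sema3c, Epha4 and Plxnb3 were furthest below 0.

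Genes that act downstream of these receptors were followed as lists. Calls on them are to be read against 7.38% of all genes rising and 6.32% falling in dispersed and 3.74% and 1.74% in myofiber-associated myoblasts. Of 32 effectors and partners of Eph and ephrin signaling, 29 were tested: 9 rose and 1 fell in dispersed myoblasts (median 0.13, against 0.02 over all genes) and 7 rose and none fell in myofiber-associated ones (median 0.21, against 0.06). Arhgef19, a member of the ephexin family, rose by 0.96 ± 0.07 (adjusted p = 0.00011) and 2.30 ± 0.27 (adjusted p = 0.002). Grip1, a PDZ scaffold of ephrin-B, rose by 0.97 ± 0.11 and 2.03 ± 0.29, and Chn1, the chimaerin that inactivates Rac below EphA4, by 0.77 ± 0.08 and 1.98 ± 0.23. Its relative Chn2 fell by 0.62 ± 0.11 in dispersed myoblasts (adjusted p = 0.0059). The Ras GTPase-activating protein Rasa1 rose by 0.65 ± 0.07 and 1.70 ± 0.18, with an interaction of -1.05 ± 0.20 (adjusted p = 0.0056). Rgs3, which couples ephrin-B to G proteins, rose in myofiber-associated myoblasts by 1.90 ± 0.26 (adjusted p = 0.0037).

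Of 41 plexin effectors and neuropilin partners, 39 were tested, and 4 rose and 4 fell in dispersed and 2 rose and 1 fell in myofiber-associated myoblasts (medians 0.05 and 0.12). The small GTPase Rhod, which binds plexins, rose by 0.60 ± 0.04 (adjusted p = 6.8e-05) and 1.80 ± 0.16 (adjusted p = 0.00095), with an interaction of -1.19 ± 0.17 (adjusted p = 0.0013). Dpysl3, a collapsin response mediator protein that relays semaphorin 3A signals, rose by 0.80 ± 0.05 and 2.17 ± 0.29. Flt1, a VEGF receptor of endothelial cells, fell by 1.72 ± 0.18 and 2.66 ± 0.33. Kdr, the VEGF receptor that pairs with neuropilin-1, and Met, a partner of B-type plexins, fell in dispersed myoblasts by 0.38 ± 0.06 and 0.50 ± 0.08. Among 21 tested genes of the Slit, Robo, netrin and repulsive guidance families, Robo1 (1.36 ± 0.11 and 2.10 ± 0.32), Robo3 (0.69 ± 0.11 and 1.99 ± 0.32) and Srgap3 (1.1 ± 0.05 and 1.20 ± 0.20), a Rac GTPase-activating protein below Robo, rose in both cultures. Robo4, the endothelial member of the Robo family, fell in dispersed myoblasts by 1.38 ± 0.13 (adjusted p = 0.00025). The called genes of the Eph, plexin and other guidance lists were 10 of 29, 8 of 39 and 8 of 21 in dispersed myoblasts, against 13.7% of all genes, and 7, 3 and 3 in myofiber-associated ones, against 5.48%.

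Most members were read by 1 probe. Of the 20 with more, 11 had 2 probes well above background on all 16 arrays, and the probes had the same sign of change in 9 of 11 in dispersed and 8 of 11 in myofiber-associated myoblasts. Besides Epha5, 1 uncertain case was Plxna2, whose second probe maps to chromosome 14 while the gene and its first probe lie on chromosome 1. That probe changed by 0.42 and 0.85, against -0.24 and 0.57 for the probe used, and Plxna2 passed in neither culture. The probes of Sema3c also differed in sign in dispersed myoblasts (0.11 and -0.03). In myofiber-associated ones those of Sema6d (-0.34 and 0.33), Efnb2 (0.05 and -0.20) and Sema6c (0.06 and -0.08) did. At 72 hr the second Sema6d probe was at 6.24 in dispersed and 7.35 in myofiber-associated myoblasts, against 11.98 in both for the probe used. At 48 hr the second Sema6c probe was at 8.07 and 9.70, against 9.12 and 9.56.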

How the data were processed

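Samples were grouped by the culture type and time in their labels, which gave 4 groups of 4 one-color Agilent arrays. The authors deposited scanner files with each spot's processed intensity, from which the scanner software had already taken the background. The authors also deposited log2 ratios of the 72-hr arrays against their culture's averaged 48-hr signal, used here as an alternative. The software that the authors named for testing was not used here, and limma stands in for it.

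Log2 of the processed signal was taken without spots marked as outliers. Loess (span 0.3, 4 iterations) set each array against its culture's mean 48-hr array, followed by quantile normalization of all 16. Copies of a probe were averaged, a gene was read by its brightest probe on average, and a median log2 signal of at least 5 was required for testing. Times were compared on 8 arrays per culture, and the interaction and the cultures on 16, with limma 3.58.1 in R 4.3.3, two-sided. P-values were Benjamini-Hochberg adjusted over all 20317 genes, with a threshold of 0.01. Where no array of a group was well above background, the fold is against, per array, the higher of the dimmest well-measured signal and the probe's own. For Epha4 the probe's own signal was the higher, so its folds are the measured ones and not bounds.

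Named genes are, in each time comparison and the interaction, the members past the threshold, up to 8 each way, in each culture comparison the 5 largest each way, and 17 ligands and receptors chosen by name. Values are also given for some members outside this rule, such as Ephb1, Sema3b and Plxna2. The search for single arrays apart from their group did not cover those members. Members, gene lists and this rule were chosen with earlier results of these data known. The lists cover Eph and plexin effectors, other guidance genes, and endothelial, Schwann, leukocyte, fibroblast or pericyte, adult fiber and myoblast markers. Promoters came from RefSeq (GRCm38.p6). As alternatives, the background was corrected with normexp (offset 50), arrays were scaled at percentile 75 or by quantiles alone, 2 other filters and the probes' mean were used, all 16 arrays entered 1 fit, slide row was blocked, the deposited ratios were tested, the adjusted p was set at 0.05, and each array was left out in turn. Replicates were separate preparations, and their number limits the precision. The labels call every source myofibers, so the culture follows their growth type instead.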

Additional observations from a re-analysis of the deposited data

Results flagged for a closer look

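The change with time differed between the cultures for 6 guidance genes, by the interaction test of limma. The interaction, dispersed minus myofiber-associated change on the log2 scale, was -2.27 for Sema6b, -2.12 for Sema3e, -2.09 for Epha1, -1.50 for Sema6a, -0.99 for Ephb4 and -0.95 for Nrp1. For Sema6b all 72-hr arrays lay below all 48-hr arrays in dispersed and above them in myofiber-associated myoblasts.

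Among 35 named genes in 4 groups each, 140 sets of 4 arrays, 8 had 1 array whose gap to its neighbor took up more of the range than Dixon's 95% critical value. Chance alone gives about 1 set in 20. The myofiber-associated 48-hr replicate 10+11 was the array apart in 4 of them: the share of the range was 0.892 for Efna3 (8.25, next 8.61), 0.910 for Efnb1 (12.80, next 12.35), 0.850 for Epha1 (6.41, next 5.79) and 0.872 for Nrp2 (14.68, next 13.31). Dispersed 48-hr replicate 1 was highest for Efna4 (0.834) and Plxna1 (0.831), dispersed 48-hr replicate 4 for Sema6a (0.867), and dispersed 72-hr replicate 8 was lowest for Sema5a (0.866). Without replicate 10+11 the interaction passed for 12 members in place of 6. Over all genes tested it passed for 2358 of 20298 in that run, in place of 701 of 20317.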

How the results depend on the processing

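No paired analysis was possible because the groups compared share no replicate number that marks a common preparation. None of the 43 called changes or interactions reversed its sign under any alternative, and the counts of members apart between the cultures stayed within 1.5 times (29 to 37 at 48 hr and 15 to 16 at 72 hr over the alternatives of processing, 38 and 22 at an adjusted p of 0.05, and 31 to 39 and 12 to 16 with 1 array left out). With no filter on low signal, where all 34836 genes entered the adjustment, the counts were lower, with 14 calls in dispersed cells, 7 in myofiber-associated ones and 3 interactions. Over all genes 2052, 468 and 409 passed there, in place of 2784, 1113 and 701. A single fit of all 16 arrays, which shares 1 spread between the cultures, gave 10 and 26, and 999 and 5780 over all genes. The slide row as a block gave 8 in myofiber-associated myoblasts, and 571 over all genes. At an adjusted p of 0.05 the counts were 23 in myofiber-associated myoblasts and 19 interactions (2 above and 17 below 0). The deposited ratios, which carry only the spread of the 72-hr arrays, gave 17 interactions (3 above, 14 below). Over all genes, 4585 changes and 3129 interactions passed at 0.05, and 3823 interactions passed with the deposited ratios. With 1 array left out the counts ranged from 14 to 19, from 5 to 16 and, for the interaction, from 1 to 12. Over all genes the ranges were 1657 to 2480, 246 to 2005 and 292 to 2358. With normexp the offset lifts every gene over the floor, so the filter did not act there. Low signal leaves 5 members untested and Epha4 without a well-measured value at 48 hr in myofiber-associated myoblasts.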
